A study of Oryzias latipes with 15 samples.

Results

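Genes of lymphocytes and neutrophils and the lysozyme gene were followed in the testis of a small freshwater fish, the medaka Oryzias latipes. They were chosen by name: rag1, rag2, lyz, csf3r and mpx, 5 symbols that match 6 of the 23028 genes in the deposited table, since mpx has 2 entries (ENSORLG00000009297 and ENSORLG00000009349). The names were proposed with results of these libraries in view, and the 10 mg/L perchlorate group against control was taken as the comparison that chose them. That comparison, and those that share its 10 mg/L libraries, are therefore given for the 6 entries as levels and fold changes with no test. The tested comparisons against control share its control libraries, so their calls for the 6 entries are not independent of the choice. For other genes, counts past the threshold in the high dose against control are a description and support nothing. All 6 entries passed a minimum mean of 10 normalized counts over the libraries. rag1, rag2 and lyz passed it only through the 2 groups given 10 mg/L perchlorate, as their means were below 10 in the other 3.

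The 5 groups had 3 biological replicates each, all of testis: control fish, fish exposed to 0.01 mg/L potassium perchlorate (KClO4, the low dose), fish exposed to 10 mg/L KClO4 (the high dose), fish given 10 mg/L KClO4 together with 3 mg/L vitamin C (the combined treatment), and fish that received vitamin C at 3 mg/L without perchlorate. Perchlorate is a competitor of iodide at the thyroid's uptake pump; vitamin C is an antioxidant. The question was what perchlorate does in the testis and if vitamin C modifies it. Strain, age and exposure time are not stated in the labels used here, nor if each replicate came from 1 animal or several, so p-values measure the spread between these libraries, which may be partly technical.

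RAG1 and RAG2 are the subunits of the recombinase that cuts antigen receptor genes in developing lymphocytes, in fish mainly in the thymus and the kidney marrow. csf3r encodes the receptor for granulocyte colony-stimulating factor, a signal for neutrophil formation. mpx is the zebrafish name for myeloperoxidase, the peroxidase of neutrophil granules. The symbol is the deposited table's; mpx was not matched in the RefSeq table used here, so whether both entries are that gene was not checked. lyz encodes a lysozyme, an enzyme that cuts bacterial cell walls. In bulk tissue, fewer cells of a type and less RNA per cell cannot be told apart.

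Depth lay between 3.21 M reads, in high-dose replicate 1, and 21.3 M reads, in replicate 1 of the high dose with vitamin C. Controls held at least 7.82 M reads and low-dose libraries 5.48 to 6.19 M. Testis markers were present in every library: the summed normalized count of 12 Leydig and Sertoli cell genes was 23762 to 25579 in controls and 8145 to 17431 at the low dose. The low-dose libraries stood apart, with 107404, 239111 and 22623 normalized counts summed over 8 oocyte genes in replicates 1, 2 and 3, against 275 to 365 in controls and 767 to 2373 in the other groups. Values of the low dose below are therefore also given without replicates 1 and 2, where that changes a call. Replicate 3, which then remains, was itself above every control at 22623, so that fit does not take the oocyte genes out. The 8 oocyte genes were at a median log2 difference of 6.40 in it.

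rag1 stood at 3.18, 1.25 and 6.03 normalized counts in control replicates 1, 2 and 3, and at 8.62, 129.7 and 43.6 in the high-dose replicates. With vitamin C added to the high dose it stood at 13.7, 22.2 and 29.4. It was at 10.2, 4.79 and 9.01 at the low dose, and at 7.08, 4.51 and 4.72 with vitamin C alone. All 6 libraries with 10 mg/L KClO4 were above every control, and the high-dose libraries were the most spread, from 8.62 to 129.7. Their shallowest library held 3 rag1 reads against 202 in replicate 2. In the order of group means, the high dose came first, then the high dose with vitamin C, the low dose, vitamin C alone and control. Of these neighbours, only the high dose with vitamin C and the low dose had ranges that did not overlap.

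rag2 stood at 3.18, 1.25 and 2.68 in controls and at 2.87, 99.5 and 27.6 at the high dose. With vitamin C added to the high dose it was at 12.1, 13.8 and 13.1, and with vitamin C alone at 4.72, 7.73 and 4.72. At the low dose it was listed at 0, 0 and 3.00, where 3 reads, the limit that a count of 0 allows, correspond to 6.14 and 7.19 normalized counts in replicates 1 and 2. The 3 libraries of the combined treatment were close to each other, with an SD of 0.837 (n = 3), whereas high-dose replicate 1 lay within the control range. The group order was the high dose, the high dose with vitamin C, vitamin C alone, control and the low dose, with overlap between the first pair and between the last pair.

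Both recombinase genes were thus high in the same high-dose libraries, 2 and 3, and low in replicate 1. The 202 rag1 reads of high-dose replicate 2 stood beside 155 rag2 reads, and the 41 of replicate 3 beside 26. In the 3 libraries of the combined treatment, rag1 reads were 34, 37 and 36 and rag2 reads 30, 23 and 16. Across the 15 libraries the Pearson correlation of their log2 values was 0.80, and 0.83 after subtracting group means. This is a description of libraries that share treatment groups and depth. In the reference gene order (RefSeq assembly ASM223467v1) rag1 and rag2 are direct neighbours, as in other vertebrates. Of the other genes within 4 or 5 places that have a symbol in the table, ehf, an epithelial transcription factor gene, was at a log2 difference of 2.14 ± 0.51 at the high dose, MAN2A2, a Golgi mannosidase gene, at -0.88 ± 0.27 and pdhx, a pyruvate dehydrogenase component gene, at 0.05 ± 0.17.

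lyz stood at 0, 2.49 and 4.69 in controls, at 6.14, 0 and 0 at the low dose, and at 2.95, 7.09 and 4.72 with vitamin C alone. At the high dose it was at 8.62, 35.3 and 18.1. With vitamin C added to the high dose it was at 36.4, 143 and 47.4, the highest group. lyz was therefore the only 1 of the 6 entries whose mean was highest with both agents. The high dose with vitamin C did not overlap the high dose, and the high dose did not overlap the next group, vitamin C alone. The 8.62 of high-dose replicate 1 rests on 3 reads, as does the 6.14 of low-dose replicate 1.

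csf3r stood at 7.42, 8.72 and 14.1 in controls and at 11.2, 18.0 and 18.9 with vitamin C alone. It was at 32.7, 59.9 and 18.0 at the low dose, at 25.9, 69.3 and 46.8 at the high dose, and at 22.6, 39.0 and 32.7 with vitamin C added to the high dose. The 2 perchlorate doses and the combined treatment overlapped each other, and the combined treatment was apart from vitamin C alone. In the low-dose libraries csf3r was highest in replicate 2 and lowest in replicate 3, the same order as the summed oocyte genes; the part of oocyte RNA in this level was not tested.

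The mpx entries were highest in control. mpx ENSORLG00000009297 stood at 429, 608 and 487 in controls, at 169, 135 and 149.9 at the high dose, and at 198, 244 and 138 with vitamin C alone. With vitamin C added to the high dose it was at 293, 466 and 621, overlapping the controls. At the low dose it was at 117, 110.2 and 569: replicates 1 and 2 lay below every control and replicate 3 within the control range.

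mpx ENSORLG00000009349 stood at 299, 339 and 183 in controls, at 167, 130.3 and 132 at the high dose, and at 107, 119 and 72.0 with vitamin C alone. With vitamin C added to the high dose it was at 173, 240.4 and 292, and at the low dose at 65.5, 43.1 and 134. Again the combined treatment overlapped the controls, while the high dose, the low dose and vitamin C alone all lay below them. The 2 entries followed each other over the 15 libraries (Pearson r = 0.82 on log2 values, 0.86 after subtracting group means). How reads that match both entries were counted was not stated in what was used here, so their split is uncertain.

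**Figure D1:**
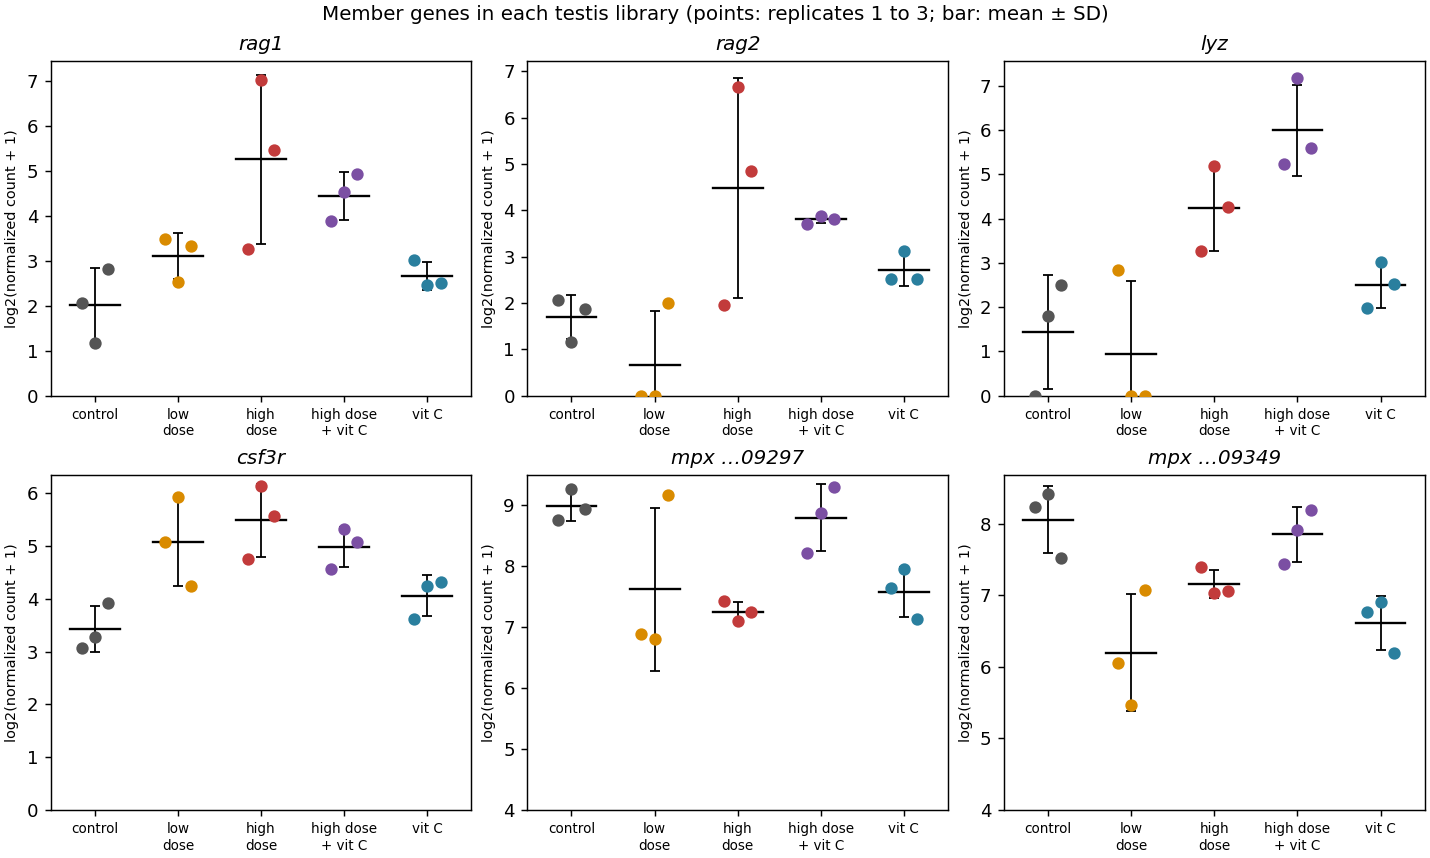
Log2(normalized count + 1) of the 6 entries in each of 15 testis libraries, by group, with points for replicates 1 to 3 and bars for the mean ± SD (n = 3); the vertical axes of the mpx panels start at 4. The means of rag1, rag2 and lyz are highest in the groups given 10 mg/L perchlorate, csf3r is higher with either dose than in control, and both mpx entries are highest in control and in the high dose with vitamin C.

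The low dose was compared with control with limma over all 17778 genes that passed the minimum mean, where 47.8% of genes were called at an adjusted p under 0.05, 24.9% higher and 22.9% lower. Of the 6 entries, 1 rose, 2 fell and 3 did not pass, a share of calls near that of all genes. This comparison and the next 2 share the control libraries, so they are not independent of each other or of the comparison that chose the entries. Low-dose libraries were all above control in 25.1% of all genes and all below in 26%. csf3r rose by 1.66 ± 0.46 on the log2(value + 1) scale (SE, n = 3 per group, limma adjusted p = 0.00855), higher in 3 of 3 low-dose libraries than in any control. mpx ENSORLG00000009349 fell by 1.86 ± 0.36 (limma adjusted p = 0.00101), lower in 3 of 3, and mpx ENSORLG00000009297 fell by 1.37 ± 0.47 (limma adjusted p = 0.0248), lower in 2 of 3.

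rag1 (1.101 ± 0.73, limma adjusted p = 0.223), rag2 (-1.04 ± 0.89, 0.348) and lyz (-0.49 ± 0.84, 0.651) did not pass at the low dose. Leaving out low-dose replicates 1 and 2 was tried only once the data had been seen, and the lone library is then assumed to vary like the other groups. None of the 6 was called by limma in that fit: csf3r was at 0.83 (adjusted p = 0.391), mpx ENSORLG00000009349 at -0.98 (0.101) and mpx ENSORLG00000009297 at 0.18 (0.787). The call of mpx ENSORLG00000009297 was also lost with edgeR (adjusted p = 0.154), with DESeq2 (0.102), with only the 2 groups in the fit (0.118), with scaling on abundant genes (0.0619) and when control replicate 2 or 3 or low-dose replicate 1 or 2 was left out (0.0513 to 0.122). With only the 2 groups in the fit, csf3r was at an adjusted p of 0.0575.

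Spermatid and sperm genes summed to less at the low dose as well. The summed normalized count of 9 spermatid and sperm genes was 16246 to 23961 in controls and 8563, 4203 and 13144 at the low dose. As a percentage of that sum, mpx ENSORLG00000009297 was 2.12, 2.54 and 3.00 in controls and 1.36, 2.62 and 4.33 at the low dose, so on this measure the groups overlapped. For mpx ENSORLG00000009349 the percentages were 1.48, 1.41 and 1.13 in controls and 0.765, 1.03 and 1.02 at the low dose, where all 3 low-dose libraries were below all controls. No test was made on these ratios.

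Vitamin C alone was compared with control to see whether it acts on these genes without perchlorate. limma called none of the 6 entries, against 0.405% of all genes. At an unadjusted p under 0.05 limma counted 2, both mpx entries, and 1705 of all 17778 genes. edgeR called 0 of the entries and 66 of all genes, and DESeq2 1 and 257. mpx ENSORLG00000009297 was at -1.41 ± 0.47 (limma adjusted p = 0.301) and mpx ENSORLG00000009349 at -1.44 ± 0.36 (0.115), and both were lower in 3 of 3 libraries than in any control; 13% of all genes were separated in that direction. Both were called once the low-dose group was left out of the fit, an alternative chosen after seeing the data (limma adjusted p = 0.00528 and 0.00559), and with only these 2 groups (0.00281 and 0.00935). Without low-dose replicate 3 they were at 0.00343 and 0.00653.

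With vitamin C alone, mpx ENSORLG00000009297 was 0.751 to 1.41% of the summed spermatid and sperm genes, below the 2.12 to 3.00% of controls. The sum itself was 17296 to 18387, within the control range. rag1 (0.65 ± 0.73), rag2 (1.02 ± 0.89), lyz (1.07 ± 0.84) and csf3r (0.63 ± 0.46) were above control on average and did not pass (limma adjusted p from 0.744 to 0.866), although the 3 rag2 libraries, on 4 to 12 reads each, were all above the controls, as in 14.6% of all genes.

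The high dose with vitamin C was compared with control and with vitamin C alone. The second of these compares neither control nor high-dose libraries, but its estimate of spread uses them, since 1 fit was made over all 15 libraries. Against control, 1 of the 6 entries rose, lyz, where limma called 3.62% of all genes, 2.36% higher. It was higher by 4.56 ± 0.84 (limma adjusted p = 0.0120), in 3 of 3 libraries. lyz passed the minimum mean only through the groups given 10 mg/L. The controls are also those of the comparison that chose it, so the call is a description. With no minimum the limma adjusted p of lyz was 0.0108, with 586 of all genes called. The call was lost when control replicate 1 (adjusted p = 0.0765) or 2 (0.0505), or replicate 2 (0.0984) or 3 (0.0608) of the combined treatment was left out. csf3r (1.56 ± 0.46, limma adjusted p = 0.0679), rag1 (2.43 ± 0.73, 0.0701) and rag2 (2.10 ± 0.89, 0.182) did not pass, though each was above control in 3 of 3 libraries, as were 17.6% of all genes. Without the low-dose group csf3r was at an adjusted p of 0.0176 and rag1 at 0.0303. rag1 and rag2 had also passed the minimum mean through the groups given 10 mg/L, and with no minimum they were at 0.0748 and 0.183 over all groups. Both mpx entries overlapped the controls, at -0.19 ± 0.47 and -0.20 ± 0.36 (limma adjusted p = 0.853 and 0.793). A p that misses the threshold does not show equal levels.

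Against vitamin C alone, limma called none of the 6, with 0.27% of all genes called. At an unadjusted p under 0.05 limma counted 4 of the 6 and 1734 of all 17778 genes. edgeR called 1 and 68, and DESeq2 2 and 180. The 4 were lyz, rag1 and both mpx entries, and each of these counts holds lyz. lyz and rag1 passed the minimum mean only through the 10 mg/L groups. Any call of either in this comparison is therefore a description. csf3r and both mpx entries, whose means passed the minimum in every group, were higher in 3 of 3 libraries than in any library of vitamin C alone, where 14.9% of all genes were. rag1, rag2 and lyz were too, but passed the minimum through the 10 mg/L groups, so that nothing is read from their number. lyz was higher by 3.49 ± 0.84 (limma adjusted p = 0.163), rag1 by 1.78 ± 0.73 (0.470), mpx ENSORLG00000009349 by 1.23 ± 0.36 (0.324), mpx ENSORLG00000009297 by 1.22 ± 0.47 (0.449), rag2 by 1.09 ± 0.89 (0.691) and csf3r by 0.93 ± 0.46 (0.522). Without the low-dose group, lyz (0.0240) and the mpx entries (0.0300 and 0.0320) passed. edgeR called lyz (adjusted p = 0.0217), and so did DESeq2 (5.28e-05).

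**Figure D2:**
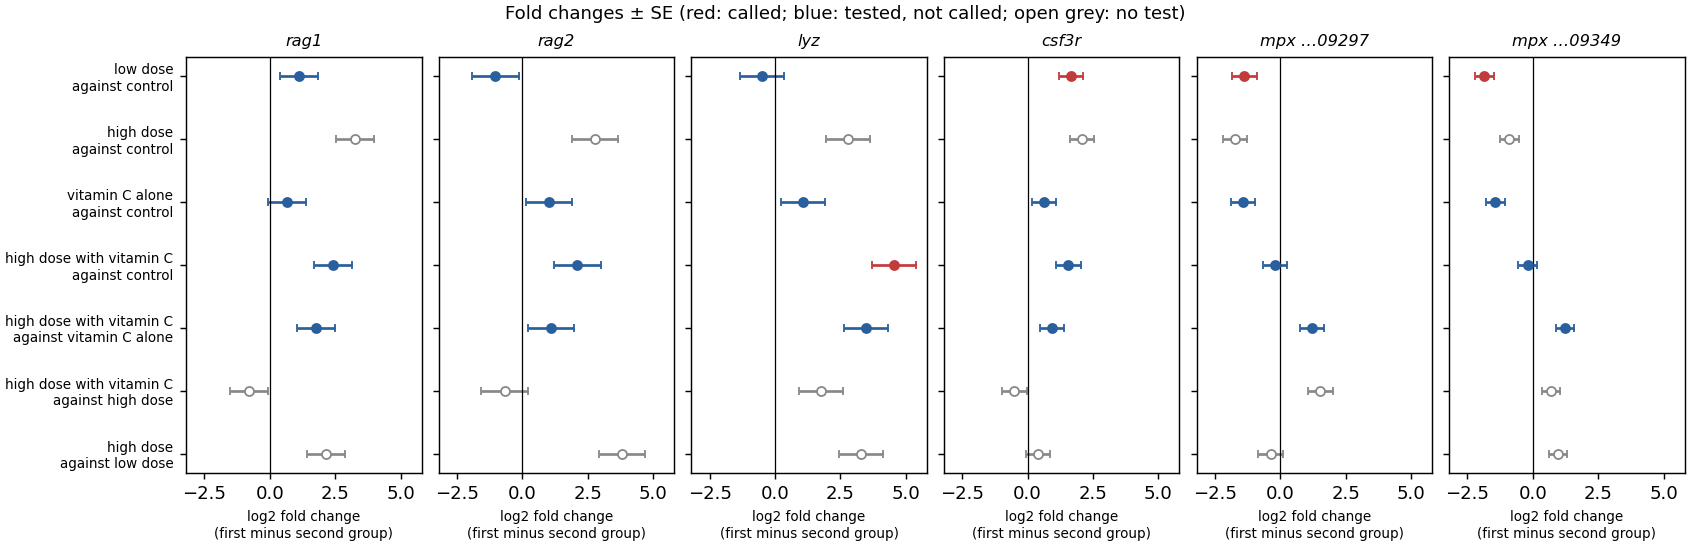
Log2 fold change ± SE from limma of each entry (columns) in 7 comparisons (rows), on the log2(value + 1) scale with n = 3 libraries per group; red points are called at an adjusted p under 0.05, blue points are tested and not called, and open grey points have no test. csf3r and both mpx entries are called at the low dose, in opposite directions, and lyz in the high dose with vitamin C against control.

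For the comparisons with no test, the values are given side by side. From control to the high dose, the log2 differences were 3.24 ± 0.73 for rag1, 2.78 ± 0.89 for rag2, 2.80 ± 0.84 for lyz and 2.06 ± 0.46 for csf3r, and -1.73 ± 0.47 and -0.89 ± 0.36 for mpx ENSORLG00000009297 and ENSORLG00000009349; limma called 38.7% of all genes there, 18.3% higher and 20.5% lower. Leaving rag2 aside, the high-dose libraries were all above (rag1, lyz, csf3r) or all below (both mpx entries) the controls, as were 28.6% and 28.8% of all genes. Without the shallow high-dose replicate 1, rag1 was at 4.24 and rag2 at 4.04. When vitamin C was added to the high dose, rag1 differed by -0.81 ± 0.73, rag2 by -0.68 ± 0.89 and csf3r by -0.50 ± 0.46, each with overlapping groups, while lyz (1.76 ± 0.84), mpx ENSORLG00000009297 (1.54 ± 0.47) and mpx ENSORLG00000009349 (0.69 ± 0.36) were higher in 3 of 3 libraries, as were 21.3% of all genes. From the low to the high dose, rag2 (3.81 ± 0.89), lyz (3.29 ± 0.84) and rag1 (2.14 ± 0.73) were higher on average, with overlap for rag1 and rag2; lyz was apart, as were 20.5% of all genes in that direction. Over the same step csf3r was at 0.40 ± 0.46, mpx ENSORLG00000009297 at -0.36 ± 0.47 and mpx ENSORLG00000009349 at 0.96 ± 0.36, each with overlapping groups.

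The mpx entries thus had opposite differences at 10 mg/L perchlorate with and without vitamin C: lower than their controls without it in 3 of 3 libraries, and higher than vitamin C alone with it in 3 of 3. Separately, 28.8% and 14.9% of all genes were apart in these directions, and the share with both was not counted. As a percentage of the summed spermatid and sperm genes, ENSORLG00000009349 was 1.12, 1.15 and 0.942 at the high dose, overlapping its controls. ENSORLG00000009297 was 1.13, 1.19 and 1.07, below all controls. The ratio between the entries, which does not depend on the scaling of a library, also varied. Reads of ENSORLG00000009297 per read of ENSORLG00000009349 were 1.02, 1.03 and 1.14 at the high dose, and 1.44, 1.79 and 2.66 in controls. The ratios were 1.70, 1.94 and 2.13 with vitamin C added and 1.84, 2.06 and 1.92 with vitamin C alone. At the low dose they were 1.78, 2.56 and 4.26, so the high dose had the lowest ratios and its 3 libraries lay below all the others.

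**Figure D3:**
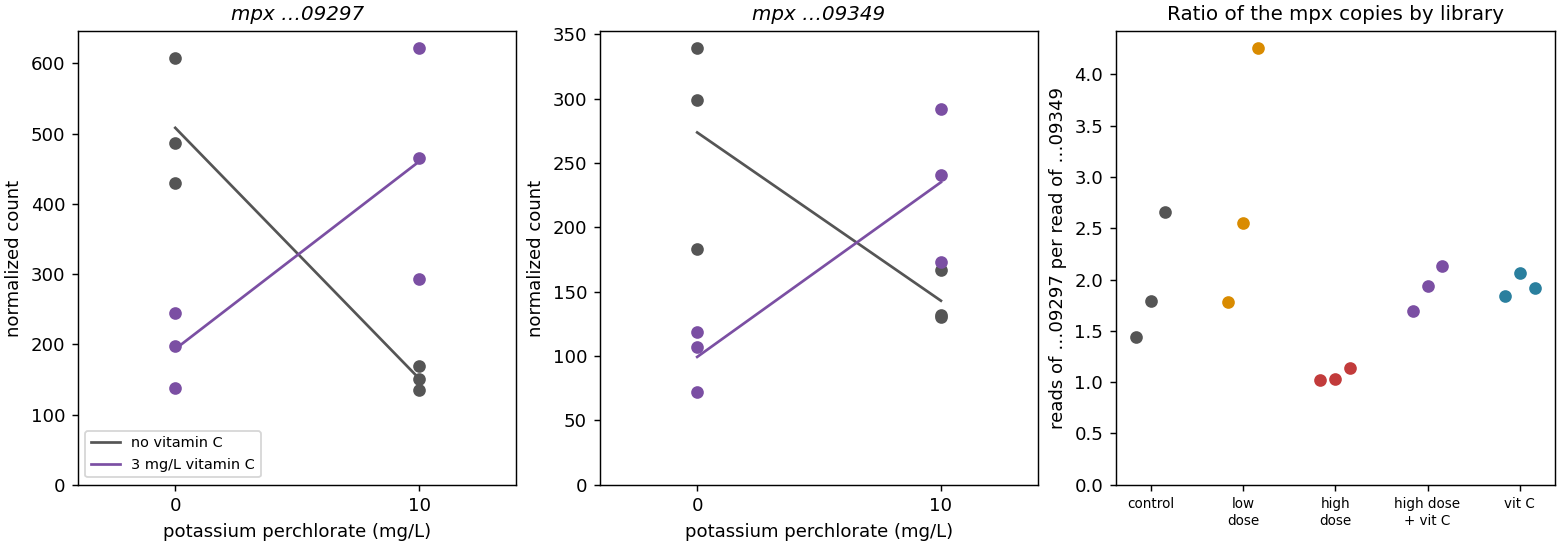
Normalized counts of the 2 mpx entries at 0 and 10 mg/L potassium perchlorate, without (grey) and with (purple) 3 mg/L vitamin C, with points for libraries and lines between group means, and the ratio of their reads in all 15 libraries. The lines cross for both entries, and the ratio is 1.02 to 1.14 at the high dose against 1.44 or more in every other library.

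Other genes of the lymphocyte pathway were read from lists of known markers. In the high dose against control, limma called 18.3% of all genes higher and 20.5% lower. Among 8 T lymphocyte genes the high dose against control had 6 above the threshold and higher, 0 lower and 2 below it, with a median log2 fold change of 1.39 where the median of all genes tested was 0.05. Of the 4 most abundant, BCL11B and gata3, T cell transcription factor genes, were at 3.27 and 2.48, THEMIS2, a signalling gene, at 0.50 and ccr7, a homing receptor gene, at -0.20. At the low dose BCL11B rose by 5.81 and ccr7 fell by 1.02. Without low-dose replicates 1 and 2, BCL11B was at 4.01 and ccr7 at -0.16, with the oocyte genes still high in replicate 3. lck and zap70, kinase genes of T cell receptor signalling, named after their values were seen, were at 2.40 ± 0.54 and 1.53 ± 0.51 at the high dose. lck stood at 5.31 ± 4.07 normalized counts in controls and 27.4 ± 6.37 at the high dose (SD, n = 3). It passed the minimum mean only through the high dose and the combined treatment. Its means were 9.69 at the low dose and 8.96 with vitamin C alone. Its part in the count and median of the list is therefore not independent of its high level there.

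Among 9 B lymphocyte entries the counts were 4, 0 and 5 in the same order (median 1.03), such as cd79a, a B cell receptor subunit gene, at 2.21 ± 0.50; it too was named after its values were seen. In that comparison 18.3% of all genes were called higher and 20.5% lower. BTK, REL, cd40 and syk, the most abundant of the list, were at 0.05, 0.15, 0.25 and -0.20. EBF1 ENSORLG00000007471, named after its values were seen, passed the minimum mean only through the high dose and the combined treatment. Its means were 6.02 in controls, 5.67 at the low dose and 7.35 with vitamin C alone. The median of the list includes it. pax5, the B cell identity factor, was listed at 0 in 2 libraries and dntt, the enzyme that adds bases at receptor gene joins, in 3, at a mean of 2.07 normalized counts for dntt. At the low dose, 2 genes of the T lymphocyte list rose, 1 fell and 5 did not pass (median 0.06). In the B lymphocyte list 1 rose, 0 fell and 8 did not pass (median 0.32). This was beside 24.9% of all genes higher and 22.9% lower, and beside the oocyte genes, whose part was not tested. Without low-dose replicates 1 and 2 the medians of the T and B lists were 0.28 and 0.22. With vitamin C added to the high dose, 1 gene of the T lymphocyte list and 0 of the B lymphocyte list rose against control. Of all genes, 2.36% did. At an unadjusted p under 0.05 limma counted 4 and 5, edgeR called 0 and 1, and DESeq2 2 and 2. Of all 17778 genes limma counted 3876 at that unadjusted p, edgeR called 790 and DESeq2 1933.

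The partners of the recombinase in the repair of its cuts were read next. Of 9 end joining genes, which also repair breaks in other cells, 7 were called lower and 0 higher at the high dose (median -0.62), and 5 fell, 1 rose and 3 missed the threshold at the low dose (median -0.58). Of all genes, 20.5% were called lower and 18.3% higher at the high dose, and 22.9% lower and 24.9% higher at the low dose. Without low-dose replicates 1 and 2 none of the 9 was called by limma (median -0.24). PRKDC, the DNA-dependent kinase gene, was at -1.03 ± 0.18 at the high dose and xrcc6, a Ku subunit gene, at -0.62. In the combined treatment against vitamin C alone limma called none of the 9, where 0.27% of all genes were called. None had an unadjusted limma p under 0.05, and edgeR and DESeq2 called none. The median of the list was -0.05.

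Markers of thymus epithelium, the tissue in which T cells form, were sparse. foxn1, the master factor of that epithelium, and aire were each listed at 0 in 2 libraries. Only ccl25b, a chemokine gene, and dll4, a Notch ligand gene also made by vessels, passed the minimum mean. They were at 1.49 ± 0.22 and 1.55 ± 0.46 at the high dose, and both rose at the low dose (1.13 ± 0.22 and 3.04 ± 0.46). At the low dose 24.9% of all genes rose. Without low-dose replicates 1 and 2 dll4 was at 1.89 and ccl25b at 0.76, with the oocyte genes still high in replicate 3. The correlation with that list over the 15 libraries was 0.42 for rag1 and -0.09 for rag2.

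Of 11 neutrophil genes other than csf3r and mpx, the low dose had 4 that rose and 0 that fell (median 0.69), beside 24.9% and 22.9% of all genes, and beside the oocyte genes, whose part was not tested. Those that rose were mmp9, a matrix protease gene, at 1.31 ± 0.39, ncf4, an oxidase subunit gene, at 1.63 ± 0.34, nccrp1 at 2.68 ± 0.41 and s100a10b at 0.69 ± 0.24. Without low-dose replicates 1 and 2, mmp9 was at 0.66, ncf4 at 0.88, nccrp1 at 1.42 and s100a10b at 0.84, with the oocyte genes still high in replicate 3. With only the 2 groups in the fit limma called 2 of the 11. The high dose had 2 called higher and 0 lower (median 0.77), a share near the 18.3% of all genes, s100a10b and cybb, the oxidase core gene, which like ncf4 was named after its values were seen, at 1.84 ± 0.51, from 4.55 ± 1.05 to 21.9 ± 14.8 normalized counts. cybb passed the minimum mean only through the high dose and the combined treatment. Its means were 8.81 at the low dose and 8.14 with vitamin C alone. The correlation with the mean log2 level of the list over the 15 libraries was 0.89 for csf3r and -0.36 for each mpx entry, as a description of libraries that share groups and depth. It was not particular to this list: csf3r was at 0.85 with thymus epithelium, 0.82 with B lymphocytes, 0.80 with macrophages and 0.78 with T lymphocytes, and at -0.85 with meiosis. With the Leydig and Sertoli cell list the mpx entries ENSORLG00000009297 and ENSORLG00000009349 were at 0.52 and 0.72.

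lyz was set beside other antibacterial genes and beside liver genes. Of 4 antibacterial genes, lygl2, a goose-type lysozyme gene, was at 34.1 ± 17.4 normalized counts in controls and 116 ± 52.8 in the combined treatment, and did not pass against vitamin C alone (0.89 ± 0.60, limma adjusted p = 0.632). MPEG1, a perforin gene of macrophages that is also in the macrophage list, rose in the combined treatment against control (1.94). Against vitamin C alone, limma called 0.27% of all genes higher in the combined treatment. Among 12 liver genes the combined treatment against vitamin C alone had 5 that rose, 0 that fell and 7 below the threshold, with a median of 2.36 where that of all genes was -0.03. The 5, of which fga, fgb and c9 were named after their values were seen, were apoa2, an apolipoprotein gene (5.26 ± 0.52, limma adjusted p = 8.37e-05), the fibrinogen genes fgb (5.08 ± 0.58) and fga (4.14 ± 0.57), the complement gene c9 (4.14 ± 0.67) and cp, the ceruloplasmin gene (3.95). Like lyz, c9 passed the minimum mean only through the high dose and the combined treatment. Its means were 4.41 in controls, 8.85 at the low dose and 9.06 with vitamin C alone. The call of c9, which the count of 5 includes, is therefore a description.

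The liver list, 13 genes with those below the minimum, summed to 2230, 7424 and 2967 normalized counts in replicates 1, 2 and 3 of the combined treatment, and to 634 to 920 with vitamin C alone, 758 to 1112 in controls and 1065 to 2509 at the high dose. lyz had the same order in the combined treatment, and was 1.63, 1.92 and 1.60% of the liver sum there. It did not at the high dose, where the sums were 1290, 1065 and 2509 in replicates 1, 2 and 3. There lyz was highest in replicate 2, the library with the lowest sum. With vitamin C alone it was 0.465, 0.957 and 0.513% of it, and at the high dose 0.668, 3.32 and 0.720%. Over the 15 libraries the correlation of lyz with the mean log2 level of the liver list was 0.87, and that with the antibacterial list 0.53. It was 0.75 with B lymphocytes, 0.70 with exocrine pancreas, 0.66 with endothelium and 0.65 with T lymphocytes. The part of liver RNA in the level of lyz was not tested.

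**Figure D4:**
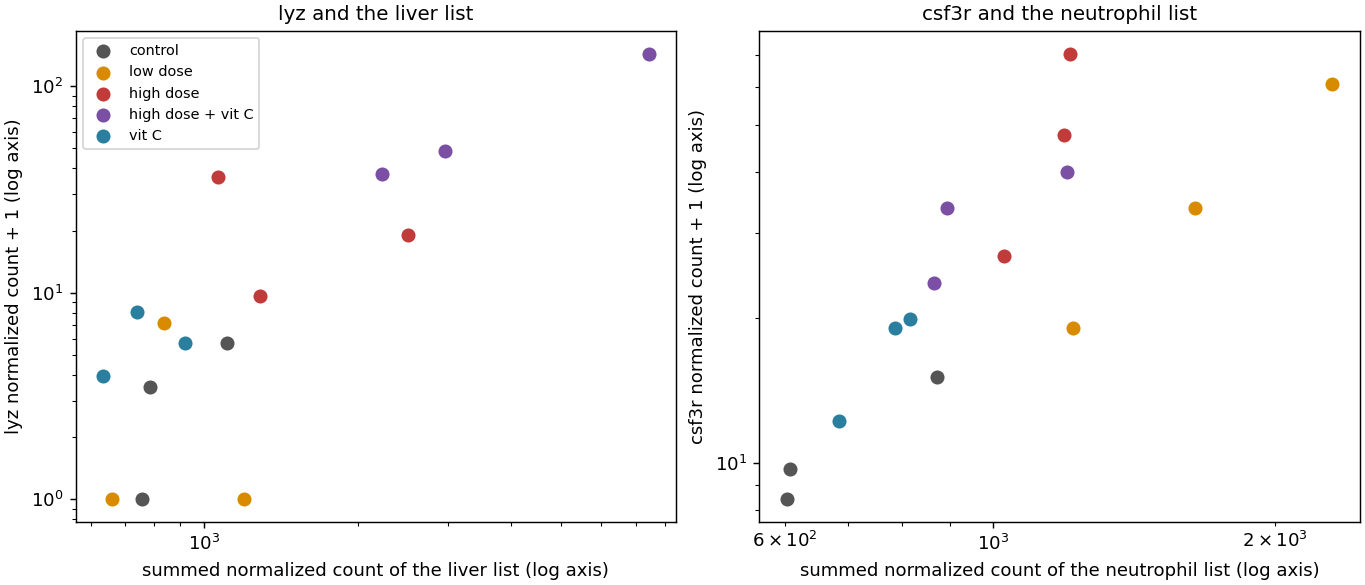
Normalized count + 1 of lyz against the summed normalized count of the liver list, and of csf3r against that of the neutrophil list, in 15 libraries coloured by group, all axes logarithmic. lyz is highest in the library with the highest liver sum, replicate 2 of the high dose with vitamin C (143 and 7424 normalized counts). Among the high-dose libraries it is highest in the one with the lowest liver sum, replicate 2 (35.3 and 1065).

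Summed markers of other tissues were higher at the high dose as well, beside rag1, rag2 and csf3r. In the high-dose libraries the summed counts were 4151 to 5711 for 19 kidney epithelium genes (1702 to 2745 in controls), 668 to 784 for 9 exocrine pancreas genes (123 to 272), 799 to 1173 for 12 endothelial genes (360.1 to 460.3) and 1142 to 1764 for 12 red blood cell and progenitor genes (828 to 940). In the combined treatment, where rag1 and rag2 stood above all controls, the exocrine pancreas sum was 286 to 555 and the endothelial sum 487 to 644, both above all controls. The kidney sum was 1627 to 1785 and the red blood cell sum 682 to 834 there, both overlapping the controls. Over the 15 libraries rag1 correlated at 0.94 with the T lymphocyte list, 0.91 with the B lymphocyte list, 0.93 with the endothelial list and 0.75 with the kidney list. rag2 was at 0.71, 0.72, 0.79 and 0.47 in the same order. With the end joining list rag1 was at -0.70 and rag2 at -0.28. The part of other tissues in these levels was not tested.

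**Figure D5:**
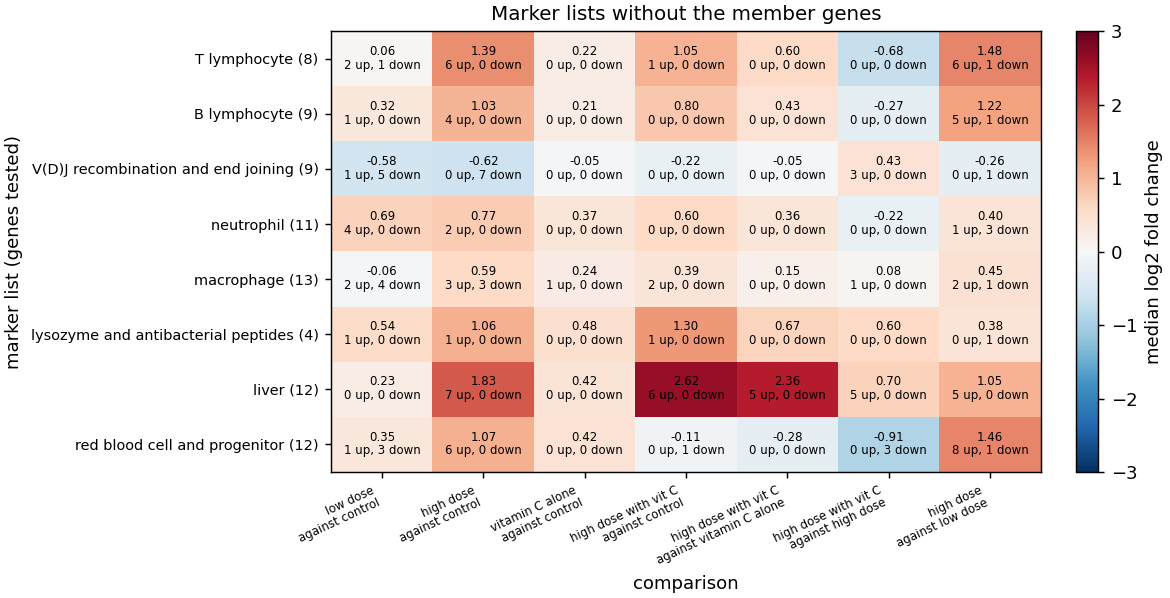
Median log2 fold change of 8 marker lists (rows, with the number of genes tested; rag1, rag2, lyz, csf3r and mpx left out) in 7 comparisons (columns), with the number of genes called by limma in each direction. Against control, the lymphocyte lists have their highest medians at the high dose (1.39 and 1.03) and the liver list in the high dose with vitamin C (2.62).

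The genes whose levels were most like each entry were taken as the 5 highest Pearson correlations of log2 values over the 15 libraries. For rag1 they were tox2, AGAP3, ptger4b, mab21l1 and SYNPO2L (r from 0.98 to 0.94). tox2, a gene of an HMG-box factor, stood at 20.7 normalized counts on average in controls, 123 at the high dose and 60.1 with vitamin C added. For rag2 they were fam131ab, ppfia2, srgap2, ADGRL3 and ZNF827 (0.96 to 0.94), so that the 2 recombinase genes shared none of their 5.

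For csf3r they were ZNF532, zfp36l2, KCNQ3, ndnf and NELL1 (0.98 to 0.96), and for lyz g6pc1a.2, a glucose-6-phosphatase gene (0.92), lpl, c9 and 2 entries named 5S_rRNA (0.89 and 0.86). For mpx ENSORLG00000009297 they were SLC49A3, abat, metap1, gtf3c3 and mrtfab (0.89 to 0.88), and for mpx ENSORLG00000009349 and1, WIPI1, CUX1, CACNA1D and adhfe1 (0.93 to 0.90). By rank correlation 3, 1, 0, 3, 1 and 1 of the 5 were the same for rag1, rag2, lyz, csf3r and the mpx entries in turn.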

How the data were processed

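The deposited values are a signal with no stated unit, which from the values are read counts divided by 1 factor per library. Per the submitters' processing notes fastp 0.23.2, STAR 2.7.7a and DESeq2 1.34.0 were used; build, annotation, counting and strand setting were not given in the sources used here. All values were whole multiples of 1 step per library (100% of 345420 values, within 0.001), and dividing by it gave whole reads and the depth; on these edgeR 4.0.16 called 8049 and DESeq2 1.42.0 8773 genes at the low dose, against 8499 with limma.

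Tests used limma 3.58.1 (R 4.3.3) with its trend option on log2(value + 1), in 1 fit over 15 libraries and 17778 genes with a mean of at least 10, Benjamini-Hochberg adjusted p under 0.05 per comparison. Fold changes understate the change of low genes. The fit was run on simulated counts with the same dispersion in all groups. The spread of the real groups differed, so the simulation does not show how reliable the calls are here. No replicate pair agreed within sampling noise (chi-square per degree of freedom 3.42 to 142). Same-numbered libraries were not paired in the tested comparisons; for the combined treatment and the high dose their deviations correlated at 0.361, 0.198 and 0.124.

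Named genes were the members, the 5 genes most like each, up to 4 of each list with the highest mean, and reference neighbours of rag1 and rag2; others are marked. Members and lists were chosen with earlier results of these data known. Of 32, 24, 11, 35, 21 and 29 symbols listed for T cells, B cells, end joining, neutrophils, antibacterial genes and liver, 9, 10, 10, 14, 4 and 13 table rows carried one. 4 of the 5 symbols, all but mpx, matched RefSeq. Alternatives were pseudocounts, filters, scaling, other tools, a replicate block, fewer groups and left-out libraries.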

Additional observations from a re-analysis of the deposited data

Results flagged for a closer look

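mpx ENSORLG00000009297 differed in opposite directions at 10 mg/L perchlorate without and with vitamin C: its 3 high-dose libraries were all below the controls (log2 difference -1.73) and its 3 libraries of the combined treatment were all above vitamin C alone (1.22). The 2 differences are 2.95 apart on the log2 scale. mpx ENSORLG00000009349 did the same (-0.89 and 1.23, 2.13 apart). As a percentage of the summed spermatid and sperm genes, though, its high-dose libraries overlapped the controls (0.942 to 1.15 against 1.13 to 1.48). The share of all genes apart in both of these directions was not counted. The difference between the 2 comparisons was not tested, since the high dose against control bore on the choice of these genes.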

How the results depend on the processing

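Of the 6 entries limma called 3 at the low dose, 1 in the high dose with vitamin C against control, and 0 in the other 2 tested comparisons. With only the groups of a comparison in the fit these were 1 and 4, with 2 for vitamin C alone and 3 for the high dose with vitamin C against vitamin C alone. DESeq2 called 3 in the high dose with vitamin C against control, 1 for vitamin C alone and 2 for the combined treatment against it, where edgeR and a pseudocount of 5 each called 1. A mean of at least 50, which keeps only the mpx entries, left 0 in the high dose with vitamin C against control. Chosen after seeing the data, leaving out low-dose replicates 1 and 2 gave 0 at the low dose, 2 for vitamin C alone, 3 for the combined treatment against control and 3 against vitamin C alone; leaving out the low-dose group gave 2, 3 and 3. Leaving out 1 library gave 2 to 3 at the low dose, 0 to 2 for vitamin C alone, 0 to 3 for the combined treatment against control and 0 to 2 against vitamin C alone. Direction changed for lyz at the low dose without control replicate 3 (0.043; -1.44 to 0.043 with 1 library left out), for mpx ENSORLG00000009297 (0.097; from -0.44) and ENSORLG00000009349 (0.00031; from -0.47) in the combined treatment against control without its replicate 1, and without low-dose replicates 1 and 2 for rag2 (0.30) and mpx ENSORLG00000009297 (0.18) at the low dose, none of them called then; the cause was not tested. The replicate block changed no call of an entry, with 3, 0, 1 and 0 called and 8392 genes at the low dose. Over all genes, the 72 calls for vitamin C alone went from 8 to 244 and the 643 of the combined treatment against control from 45 to 2178 with 1 library left out, 671 and 3704 with 2 groups in the fit, 257 and 1933 with DESeq2, and 306 and 2963 without the low-dose group. A mean of at least 50 gave 262 calls for the combined treatment against control and 22 against vitamin C alone, and quantile normalization 343 against control. At the low dose 2 groups gave 3250, and without its replicates 1 and 2 1213 were called. The 48 calls of the combined treatment against vitamin C alone went from 20 to 126, to 215, 180 and 109. rag1, rag2 and lyz rest on few reads in control, low-dose and vitamin C libraries, which limits their precision. High-dose replicate 1 was low as well, with 3, 1 and 3 reads of these genes in turn.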
